A study of Mus musculus with 8 samples.

Results

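The 9 rows described here are the hairpin genes Mir34a, Mir34b, Mir34c, Mir192, Mir194-2, Mir107, Mir15a, Mir16-1 and Mir16-2, microRNAs (miRNAs) that have been linked to the tumour suppressor p53. They were chosen by gene symbol out of the 5518 small RNA rows of the deposited count tables, and each symbol matched 1 row. The values come from 4 libraries in 2 groups. The MES group holds replicates 1 and 2 of mouse embryonic stem cells of the line B6G-2, grown without feeders in medium with leukaemia inhibitory factor and labelled as not induced, and it was read on a MiSeq by TEsR, a target-enrichment method in which linker-ligated small RNAs are amplified and captured with hybridisation probes. The TruSeq group holds 2 libraries of mouse embryonic fibroblasts (MEFs) with a conditional TRF2 allele and the inducible Cre recombinase Rosa26-CreERT2, titled induced, for which the labels give 0.6 µM 4-hydroxytamoxifen for 48 hours; they were prepared with the TruSeq small RNA method, read on a HiSeq, and are called library A (index ATCACG) and library B (index CGATGT).

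The series also holds induced and uninduced MEFs sequenced by TEsR, which were not analysed here because the codes in their column names are explained nowhere in the labels. No uninduced MEF library is therefore compared, and none of the values below reads a response to TRF2 loss. Cell type, library method, instrument and induction all differ between the 2 groups, and their parts in any difference cannot be told apart. The mRNA of Terf2, the gene for TRF2, was not analysed here, so that induction rests on the sample labels, while the name of the deposited TruSeq table calls it a control. Nothing in the labels gives separate cultures for the 2 libraries of a group, and the spread that the p-values measure may thus be technical.

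TRF2 caps the ends of telomeres, and cells that lose it sense those ends as broken DNA, which activates the kinase ATM and p53. p53 is known to switch on transcription of Mir34a and of the Mir34b and Mir34c pair, whose products repress regulators of the cell cycle. In human cells p53 also raises miR-192, miR-194 and miR-107, the last together with its host gene, and it helps the processing of the miR-16-1 precursor. The miR-15 and miR-16 family represses cyclins and the survival factor BCL2.

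The mature sequences are shown because the seed, bases 2 to 8, groups the 9 genes by the targets they can share, and because copies with the same mature sequence cannot be told apart by a read of that sequence. All are from RefSeq (GRCm38.p6, the mm10 assembly), 5′ to 3′, with the seed in capitals, and all 9 genes had at least 1 mature sequence there.
miR-34a-5p: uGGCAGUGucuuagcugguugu
miR-34b-5p: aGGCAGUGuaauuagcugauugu
miR-34c-3p: aAUCACUAaccacacagccagg
miR-15a-5p: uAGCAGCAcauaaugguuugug
miR-16-5p: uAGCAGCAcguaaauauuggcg
miR-107-3p: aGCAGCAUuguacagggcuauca
miR-103-3p: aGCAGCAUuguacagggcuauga
miR-192-5p: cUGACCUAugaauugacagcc
miR-194-5p: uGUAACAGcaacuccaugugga
miR-34a-5p and miR-34b-5p had the same seed, which 4 mature sequences of the RefSeq table carried. Mir34c is shown by its 3p arm, whose seed is not that of the family. Its 5p product, miR-34c-5p, is known to belong to the miR-34 seed family. miR-15a-5p and miR-16-5p shared another, carried by 10 mature sequences. miR-107-3p differed from miR-103-3p, of the genes Mir103-1 and Mir103-2, by C22G alone, counted from the 5′ end with the base of miR-107-3p given before the position, so the pair had the same seed. Of the 9 genes, Mir16-1, Mir16-2 and Mir194-2 held a mature sequence that a further locus also held.

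The pair of miR-16 genes illustrates this. Both hairpins, shown with the shared miR-16-5p in capitals, hold the identical 22 bases within different flanks, so only reads that reach into the loop, the other arm or the ends tell them apart.
Mir16-1 (chr14:61631880-61631972, minus strand): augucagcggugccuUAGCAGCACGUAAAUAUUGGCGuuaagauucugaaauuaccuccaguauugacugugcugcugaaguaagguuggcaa
Mir16-2 (chr3:69009902-69009996, plus strand): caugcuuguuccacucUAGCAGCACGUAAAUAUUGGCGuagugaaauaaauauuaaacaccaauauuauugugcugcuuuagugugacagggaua

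The counts behind all 9 rows were low. Together they held 23 and 26 counts in MES replicates 1 and 2, and 160 and 91 counts in TruSeq libraries A and B. The libraries had 2785150 and 2676776 counts in MES, against 8961221 and 8442960 in TruSeq, over all annotated small RNAs. As CPM, counts per 1000000 counts of the library, the 9 rows summed to 8.99 ± 1.03 CPM (SD, n = 2) in MES and 14.3 ± 5.0 CPM (SD, n = 2) in TruSeq. Their difference was about the size of the SD of the TruSeq libraries, and with 2 libraries in each group the smallest p of an exact two-sided permutation test is 0.33.

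Set against miRNA counts alone, the 9 rows were a smaller part of the MES libraries. They took 0.342% (exact Clopper-Pearson 95% interval 0.217% to 0.512%) and 0.401% (0.262% to 0.587%) of the miRNA counts in MES replicates 1 and 2. In TruSeq libraries A and B they took 2.96% (2.53% to 3.45%) and 2.70% (2.18% to 3.31%). The groups did not overlap on this scale. The miRNA counts numbered 6730 and 6480 in MES and 5403 and 3366 in TruSeq, over those miRNA rows that are clear of small nucleolar RNA (snoRNA) and ribosomal RNA rows. They leave out 1 row that is typed as miRNA but named Snord43, a snoRNA, in the annotation (AC161199.1, chr15:80082847-80082954), which had 418 and 409 counts in MES, against 1916415 and 2046848 in TruSeq. With that row in the total the order of the groups turned round, to 0.350% in MES and 0.00638% in TruSeq. No source names molecular identifiers, and intervals cover counting error only.

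The cells carried the miRNA markers of their labels. All 11 rows of stem cell markers (the miR-290 and miR-302 clusters) had counts in both MES libraries, at 474 and 515 CPM in sum, and none had a count in either TruSeq library. The 6 rows of fibroblast markers summed to 5.74 and 4.11 CPM in MES and to 81.8 and 41.9 CPM in TruSeq libraries A and B. Mir214 had 7 and 10 counts in MES, against 376 and 165 in TruSeq, and Mir143 9 and 1, against 176 and 97. Mir199a-1, Mir199a-2, Mir199b and Mir145a had 0 counts in MES. Their TruSeq counts were 0 and 2, 143 and 85, 22 and 3, and 16 and 2, so several of these zeros say little. The Mir199 rows also hold a mature sequence that another locus holds. The muscle, neural, blood and liver marker rows held 1 count in MES and 0 in TruSeq.

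Mir34a was the member with the most counts in MES. Its row (ENSMUSG00000065493, chr4:150068454-150068555, plus strand, in no annotated host gene) had 16 and 17 counts in MES, or 5.74 CPM (95% interval 3.28 to 9.33) and 6.35 CPM (3.70 to 10.2). In TruSeq libraries A and B it had 3 and 5 counts, or 0.335 CPM (0.0690 to 0.978) and 0.592 CPM (0.192 to 1.38). Both MES libraries lay above both TruSeq libraries, and no counting interval of one group reached one of the other. The summed counts per total gave a ratio of MES to TruSeq of 13.1 (95% counting interval 5.95 to 32.9). In the fit across all rows Mir34a was higher in MES, by 5.01 ± 0.56 on the log2 scale (SE; edgeR quasi-likelihood test, Benjamini-Hochberg adjusted p = 6.74e-05). Of the 352 rows tested in this comparison 86.6% were called, 36.6% higher in MES and 50% lower. Of the 83 tested miRNA rows clear of snoRNA and ribosomal RNA rows, 72.3% were called higher and 19.3% lower, so a higher call is common among miRNAs here. With library size only as the scaling, 101 rows were called higher and 219 lower, against 129 and 176. The size depended on the scale. With miRNA rows scaled on their own the log2 fold change was 1.79 ± 0.74 (SE; edgeR adjusted p = 0.0294). That fit called 44.2% of its rows higher and 38.1% lower, and it kept the Snord43 row in the library sizes and the filter. Narrower miRNA rows, set after the data were seen, leave out that row, repeated rows and rows that overlap snoRNA or ribosomal RNA rows. With them the log2 fold change was 1.63 ± 0.35 (SE; edgeR adjusted p = 0.0149). As a part of miRNA counts, Mir34a took 0.238% and 0.262% in MES and 0.0555% and 0.149% in TruSeq. On this scale the interval of TruSeq library B (0.0482% to 0.346%) overlapped those of MES (0.136% to 0.386% and 0.153% to 0.420%).

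Mir34c, which encodes a miRNA made together with miR-34b from the same transcript, had counts in TruSeq only. Its row (chr9:51103034-51103110, minus strand) had no count in either MES library, against 12 and 9 counts in TruSeq libraries A and B, or 1.34 CPM (0.692 to 2.34) and 1.07 CPM (0.487 to 2.02). A count of 0 allows 3 counts, which is 1.08 and 1.12 CPM in MES, about the level seen in TruSeq. The TruSeq mean was 1.09-fold this limit on the CPM scale, which sets no clear bound on a difference. The exact 95% intervals for 0 counts reach 1.32 and 1.38 CPM in MES replicates 1 and 2, within both TruSeq intervals. Mir34c did not pass the filter on low counts in the fit of all rows, and without that filter it was not called (edgeR adjusted p = 0.0561). With the narrower miRNA rows scaled on their own it was called lower (edgeR adjusted p = 0.0208). Mir34b (chr9:51103562-51103645, minus strand), 451 bases from Mir34c, had 1 count in all 4 libraries, in TruSeq library B. Of the pair's counts, Mir34c thus held 12 of 12 in library A and 9 of 10 in library B (90%, exact 95% interval 55.5% to 99.7%). Per 100 bases of row length, Mir34c had 15.6 and 11.7 counts in TruSeq libraries A and B, Mir34a 2.94 and 4.90 and Mir34b 0 and 1.19. In MES Mir34a had 15.7 and 16.7 counts per 100 bases, and Mir34b and Mir34c had 0. These values are not scaled by depth, so they compare rows within a library only. The CPM intervals of Mir34a and Mir34c overlapped in both TruSeq libraries. Mir449a, Mir449b and Mir449c, which belong to the same family, had no count in any of the 4 libraries.

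**Figure D1:**
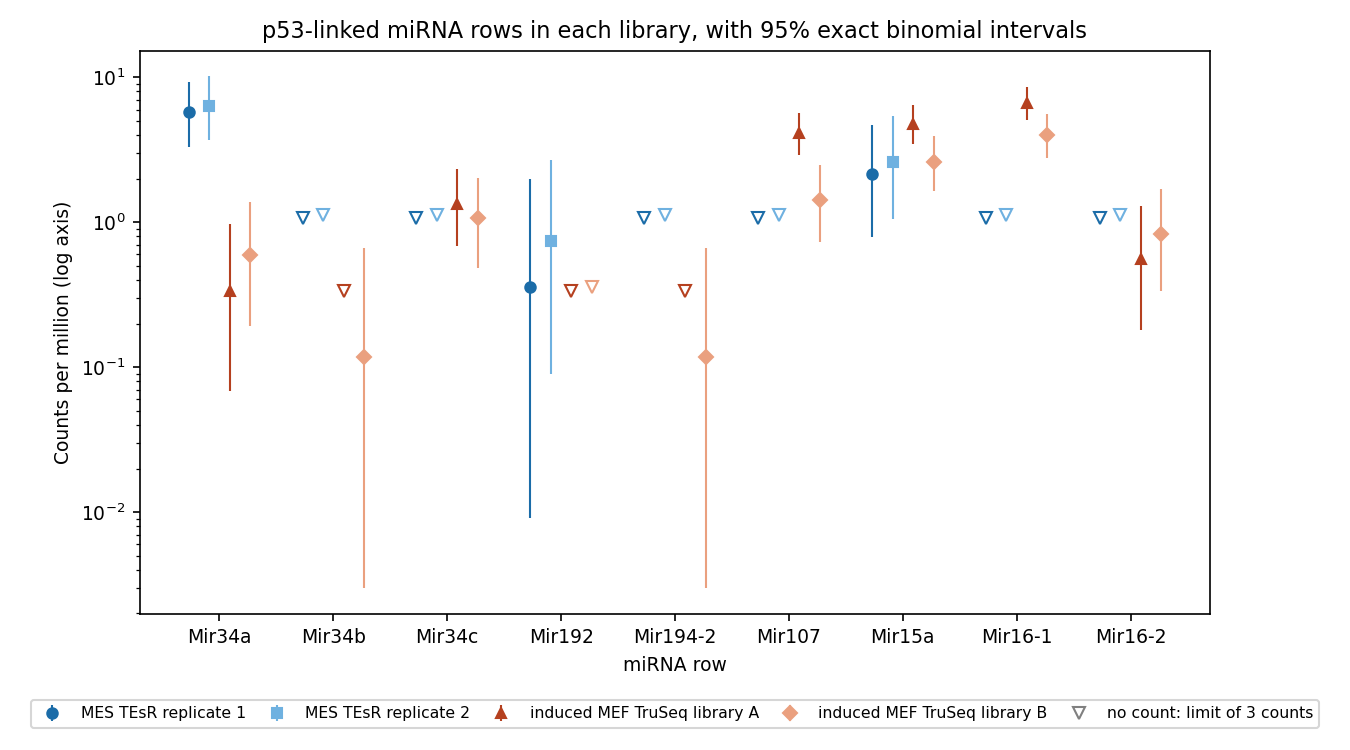
Level of each of the 9 rows in CPM (log axis) in the 2 MES TEsR and 2 induced MEF TruSeq libraries, with exact binomial 95% intervals; open triangles mark a library with no count, at its limit of 3 counts. Mir34a lies at 5.74 and 6.35 CPM in MES, above its 0.335 and 0.592 CPM in TruSeq, while Mir16-1 has no MES count and 6.70 and 4.03 CPM in TruSeq.

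The rows of the miR-192 and miR-194 cluster were at or near 0 counts in every library. Mir192 (chr19:6264844-6264932, plus strand) had 1 and 2 counts in MES, against none in TruSeq. Mir194-2 (chr19:6264643-6264728, plus strand), 115 bases from it, had none in MES and 0 and 1 in TruSeq libraries A and B. The second locus of this family, Mir194-1 and Mir215, had no count in any library. These counts allow levels of up to 1.08 and 1.12 CPM in MES and 0.335 and 0.355 CPM in TruSeq where none was seen, so no difference in Mir194-2 was detectable at this depth. Mir192 passed the threshold in the fit without a filter on low counts (edgeR adjusted p = 0.0358), on the 3 MES counts named above.

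Mir107, which lies in an intron of Pank1 (chr19:34820687-34820773, minus strand), a gene of coenzyme A synthesis, was seen in TruSeq only. It had no count in either MES library, against 37 and 12 counts in TruSeq libraries A and B, or 4.13 CPM (2.91 to 5.69) and 1.42 CPM (0.734 to 2.48). The TruSeq libraries differed from each other by more than their counting intervals, and the mean was 2.78 ± 1.91 CPM (SD, n = 2). On the CPM scale the TruSeq mean was 2.53-fold the MES limit of 3 counts, with 3.76-fold for library A alone and 1.29-fold for library B alone. These ratios leave out the counting error of TruSeq, and the interval of library B reached below that limit. Library B kept Mir107 from passing the filter on low counts; without the filter it was called lower (edgeR adjusted p = 0.0160), as were 25.4% of the 784 rows fitted in that way. Its near-identical relatives were also counted in TruSeq only: Mir103-1 had 6 and 9 counts and Mir103-2 11 and 9 in TruSeq libraries A and B, and neither had a count in MES. Their TruSeq levels, 0.670 to 1.23 CPM, were close to or below the limit of 3 counts in each MES library. The CPM values thus set no clear bound on a difference for either. With the narrower miRNA rows scaled on their own, Mir103-2 was called lower in MES (edgeR adjusted p = 0.0205), as were 43.2% of the rows of that fit. The rows of Mir103-1, Mir103-2 and Mir107 together held 54 and 30 TruSeq counts. How reads common to near-identical genes were counted is not stated, so the split between these rows is uncertain.

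Mir15a, in an intron of the long noncoding RNA gene Dleu2 (chr14:61632027-61632110, minus strand), was the other member counted in all 4 libraries. It had 6 and 7 counts in MES, or 2.15 CPM (0.791 to 4.69) and 2.62 CPM (1.05 to 5.39). In TruSeq libraries A and B it had 43 and 22 counts, or 4.80 CPM (3.47 to 6.46) and 2.61 CPM (1.63 to 3.95). The groups overlapped on the CPM scale, and the ratio of MES to TruSeq was 0.637 (95% counting interval 0.322 to 1.17). The fitted log2 fold change was 0.71 ± 0.61 (SE; edgeR adjusted p = 0.300), which is no call. Its direction turned with the scaling, to -0.64 with library size only (edgeR adjusted p = 0.309). With miRNA rows scaled on their own it was -2.48 ± 0.50 (SE), and Mir15a was called lower in MES (edgeR adjusted p = 8.07e-05). With the narrower miRNA rows it was -2.80 ± 0.71 (SE), also called, at an edgeR adjusted p of 0.0236. As a part of miRNA counts it took 0.0892% and 0.108% in MES and 0.796% and 0.654% in TruSeq, without overlap.

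Mir16-1, whose row starts 54 bases beyond that of Mir15a and overlaps an exon of at least 1 Dleu2 transcript, had the most counts of the 9 over the 4 libraries. It had no count in either MES library, against 60 and 34 in TruSeq libraries A and B, or 6.70 CPM (5.11 to 8.62) and 4.03 CPM (2.79 to 5.63). On the CPM scale its TruSeq mean was 4.88-fold the MES limit of 3 counts, and Mir16-1 was called lower in the fit (edgeR adjusted p = 0.00810). The ratio leaves out the counting error of TruSeq and the scaling factors of the fit. Mir16-2, in an intron of Smc4, a subunit of condensin, also had no MES count, against 5 and 7 in TruSeq libraries A and B, or 0.558 CPM (0.181 to 1.30) and 0.829 CPM (0.33 to 1.71). That is below the limit of 3 counts in each MES library, so the CPM values set no bound on a difference in Mir16-2. The fit without a filter did not call it (edgeR adjusted p = 0.167). The 2 miR-16 rows together had 65 and 41 TruSeq counts, or 7.25 and 4.86 CPM.

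The rows that share a transcript with the miR-16 genes were counted in MES while the miR-16 rows were not. Mir15b, which encodes another miRNA of the family and lies 66 bases from Mir16-2 in Smc4, had 74 and 43 counts in MES, or 26.6 and 16.1 CPM, against 6 and 0 counts in TruSeq libraries A and B. It was called higher in MES (log2 fold change 7.19 ± 0.82, SE; edgeR adjusted p = 7.22e-05), although without MES replicate 1 the call was lost (edgeR adjusted p = 0.0518). Of the counts on Mir16-2 and Mir15b, Mir16-2 held 0 of 74 and 0 of 43 in MES, with upper exact 95% limits of 4.86% and 8.22%. In TruSeq it held 5 of 11 in library A (45.5%, 16.7% to 76.6%) and 7 of 7 in library B (lower limit 59.0%). Of the counts on Mir16-1 and Mir15a, Mir16-1 held 0 of 6 and 0 of 7 in MES, with upper limits of 45.9% and 41.0%. In TruSeq it held 60 of 103 in library A (58.3%, 48.1% to 67.9%) and 34 of 56 in library B (60.7%, 46.8% to 73.5%). Per base of row length its TruSeq shares were 55.8% and 58.3%. For both pairs no interval of an MES library reached one of a TruSeq library, and the smallest p of the exact permutation test is again 0.33.

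**Figure D2:**
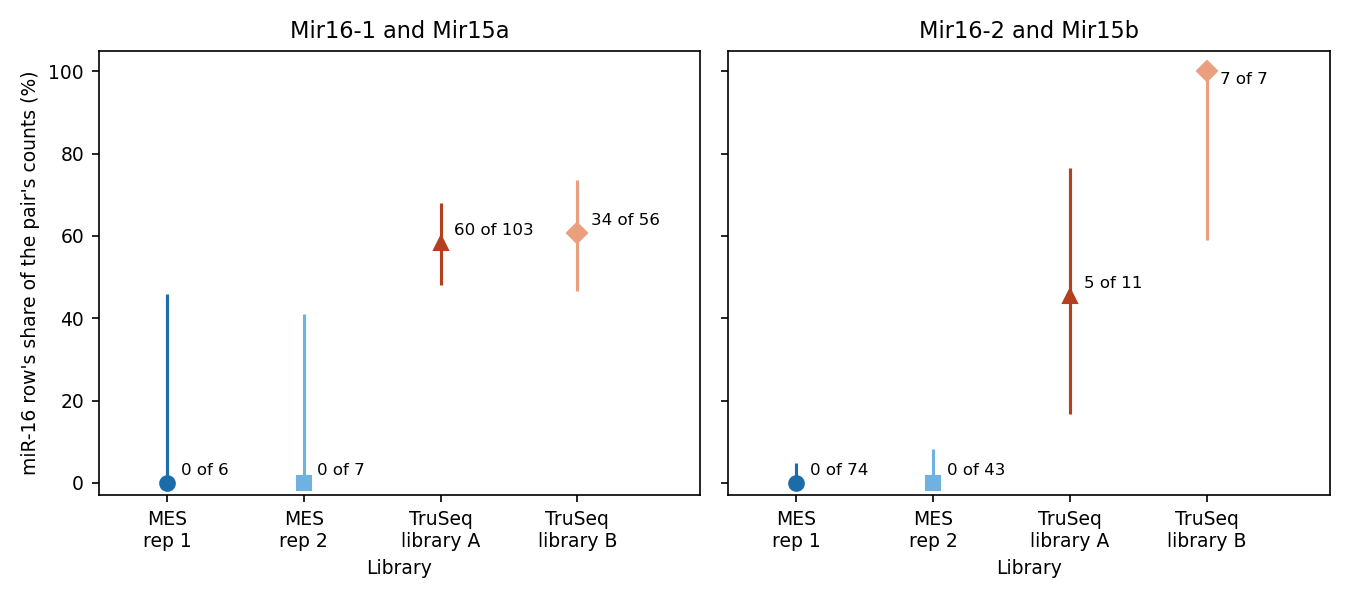
Share of the counts of a pair of neighbouring miRNA genes that fell on its miR-16 gene, in percent, with exact binomial 95% intervals and the counts beside each point; left, Mir16-1 with Mir15a, and right, Mir16-2 with Mir15b. The MES libraries have 0 miR-16 counts in both pairs, and the TruSeq libraries lie at 58.3% and 60.7% for Mir16-1 and at 45.5% and 100% for Mir16-2.

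Rows whose mature sequence has a further locus, as those of Mir16-1 and Mir16-2 do, took a smaller part of the miRNA counts in MES than in TruSeq. Of 2163 miRNA rows clear of snoRNA and ribosomal RNA rows, 1006 held a mature sequence of the RefSeq table, and 91 of them held one that another locus also held. Those 91 rows took 2.62% and 2.72% of the miRNA counts in MES, against 41.8% and 35.3% in TruSeq libraries A and B. The TruSeq shares rested largely on Mir19b-1 and Mir92-1 of the miR-17-92 cluster, and without this pair of rows, picked after their values were seen, the shares were 2.40% and 2.58% in MES, against 14.6% and 15.8% in TruSeq. Among the 91 rows, 10 had at least 10 counts in both TruSeq libraries, and 6 of these had no count in either MES library. For rows with mature sequences at 1 locus it was 7 of 31. Mir199a-2, with no count in MES and 143 and 85 in TruSeq, had the order of groups of Mir16-1. Of the 91 rows only 1, Mir29b-1, had at least 10 counts in both MES libraries. It had the opposite order, with 134 and 133 counts in MES, against 6 and 7 in TruSeq. The names of the deposited TEsR columns carry the tag q10, which the TruSeq names lack and whose meaning is not stated. The part of shared sequences or of that tag in the miR-16 values was not tested.

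**Figure D3:**
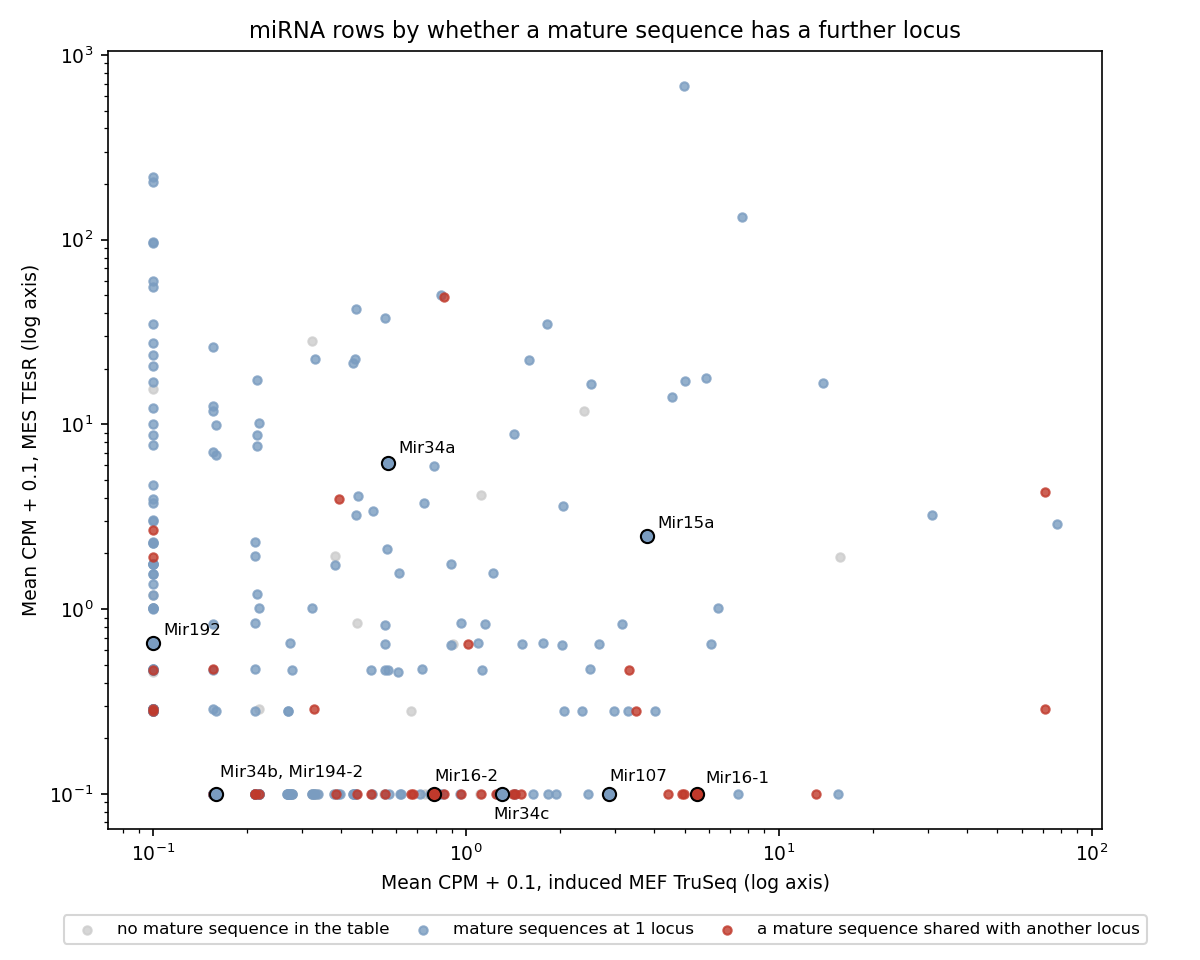
Mean level of every miRNA row with a count and no overlap with snoRNA or ribosomal RNA rows, in MES TEsR (vertical) and induced MEF TruSeq (horizontal), as CPM + 0.1 on log axes, coloured by whether a mature sequence of the row has a further locus; black outlines mark the 9 members, with Mir34b and Mir194-2 at the same point. Mir16-1, Mir16-2, Mir107 and Mir34c lie at 0 in MES, and Mir34a and Mir15a have counts in both groups.

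Taking the 9 members side by side, 2 (Mir34a and Mir192) had both MES libraries above both TruSeq libraries in CPM, 4 (Mir34c, Mir107, Mir16-1 and Mir16-2) had both below, and 3 overlapped. This order takes a count of 0 as it stands. The TruSeq levels of Mir16-2 lay below the MES limit of 3 counts, those of Mir34c were close to it, and Mir192 had 1 and 2 counts in MES. Among all 343 miRNA rows with a count, 31.2% lay wholly above and 25.4% wholly below. Of the members, 3 passed the filter on low counts: Mir34a was called higher, Mir16-1 lower and Mir15a not called. With miRNA rows scaled on their own and rows that overlap snoRNA or ribosomal RNA rows left out, an alternative added after the data were seen, 5 members were tested. Mir34a was called higher (log2 fold change 1.63 ± 0.35, SE; edgeR adjusted p = 0.0149), and Mir15a, Mir16-1, Mir107 and Mir34c lower, in a fit that called 44.3% of its rows higher and 43.2% lower. The other 6 members did not pass in the fit of all small RNA rows, and in the fit without a filter 2 of the 9 members were called higher and 2 lower, against 20.8% and 25.4% of the rows fitted in that way. The 3 rows closest in level to Mir16-1 over the 4 libraries, by Euclidean distance of log2(CPM + 1) among 145 miRNA rows with at least 10 counts, were mmu-let-7f-1 (0.23), Gm24111 (0.23) and Mir351 (0.60). Mmu-let-7f-1 and Gm24111 overlap in the genome and have nearly the same counts.

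The seed relatives and other p53-linked miRNAs gave the following. Of the miR-15 and miR-16 family, 3 of 8 rows found were tested, with Mir15b higher, Mir16-1 lower and Mir15a not called. The median log2 fold change of the 3 was 0.71, against 5.51 over the 83 tested miRNA rows and -1.06 over all rows; these include rows with a group at 0 counts, whose fitted values depend on the prior count. Mir322, a member of this family on the X chromosome, had 4 and 5 counts in MES, against 10 and 4 in TruSeq libraries A and B. It did not pass the filter in the fit of all rows, and with miRNA rows scaled on their own it was not called (edgeR adjusted p = 0.292).

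Of 11 rows of other p53-linked miRNAs, 4 were tested, of which 3 were called higher in MES, beside 72.3% of the tested miRNA rows, and none lower. The median log2 fold change was 6.17. Setting Mir200c to its ratio to the limit of 3 counts gave 5.66, which mixes a CPM ratio with values from the scaled fit. Mir29b-1, of a family that represses collagen genes, had 134 and 133 counts in MES, against 6 and 7 in TruSeq (log2 fold change 7.35 ± 0.41, SE; edgeR adjusted p = 1.30e-06). Mir29b-2 had 9 and 12 counts in MES, against 1 and 4 in TruSeq (edgeR adjusted p = 2.29e-04), and carries the same mature miR-29b. Mir200c, which represses the Zeb factors of the mesenchymal state, had 76 and 74 counts in MES, against none in TruSeq. Its MES mean was 79.6-fold the TruSeq limit of 3 counts on the CPM scale. Mir143, a miRNA of mesenchymal cells whose processing p53 also helps in human cells, had 9 and 1 counts in MES, against 176 and 97 in TruSeq libraries A and B. It was not called (log2 fold change -1.76 ± 0.74, SE; edgeR adjusted p = 0.0541), and its 2 MES values differed widely. With miRNA rows scaled on their own it was called lower, at -4.92 ± 0.61 (SE; edgeR adjusted p = 1.78e-06). With the narrower miRNA rows it was called lower at -5.25 ± 1.07 (SE; edgeR adjusted p = 0.0147). The log2 fold change was -4.03 without MES replicate 1 and -0.70 without MES replicate 2. Without TruSeq library A it was -1.33, and without TruSeq library B -2.09. DESeq2 did not call it (-1.37, adjusted p = 0.120). Mir29a, with 2 and 1 counts in MES, against 14 and 30 in TruSeq, was not among those tested in the fit of all rows. With miRNA rows scaled on their own it was called lower, at -4.03 ± 0.86 (SE; edgeR adjusted p = 1.51e-04). The narrower miRNA rows gave -4.11 ± 0.54 (SE; edgeR adjusted p = 0.00667).

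Of 6 miRNAs known to target the p53 transcript, 3 were tested, with 2 called higher in MES, beside the same 72.3%, and none lower. Their median was 3.69, against 5.51 over the tested miRNA rows. Mir25, of the Mcm7 intron, had 131 and 100 counts in MES, against 3 and 3 in TruSeq (log2 fold change 8.19 ± 0.46, SE; edgeR adjusted p = 1.31e-06). Mir30d had 34 and 30 counts in MES, against 23 and 17 in TruSeq (3.69 ± 0.44, SE; edgeR adjusted p = 1.00e-04), and with miRNA rows scaled on their own it was not called (0.47 ± 0.42, SE; edgeR adjusted p = 0.307). Mir125b-1 had 1 and 1 counts in MES, against 25 and 31 in TruSeq, and was not called (-1.74 ± 0.78, SE; edgeR adjusted p = 0.0662). With miRNA rows scaled on their own it was called lower, at -4.87 ± 0.76 (SE; edgeR adjusted p = 3.07e-06). With the narrower miRNA rows it was called lower at -5.03 ± 0.41 (SE; edgeR adjusted p = 0.00386). Mir33, with 1 and 2 counts in MES, against 15 and 14 in TruSeq, did not pass the filter in the fit of all rows. With miRNA rows scaled on their own it was called lower, at -3.38 ± 0.86 (SE; edgeR adjusted p = 8.54e-04). The narrower miRNA rows gave -3.58 ± 0.57 (SE; edgeR adjusted p = 0.00839). Mir504 had no count in any library.

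**Figure D4:**
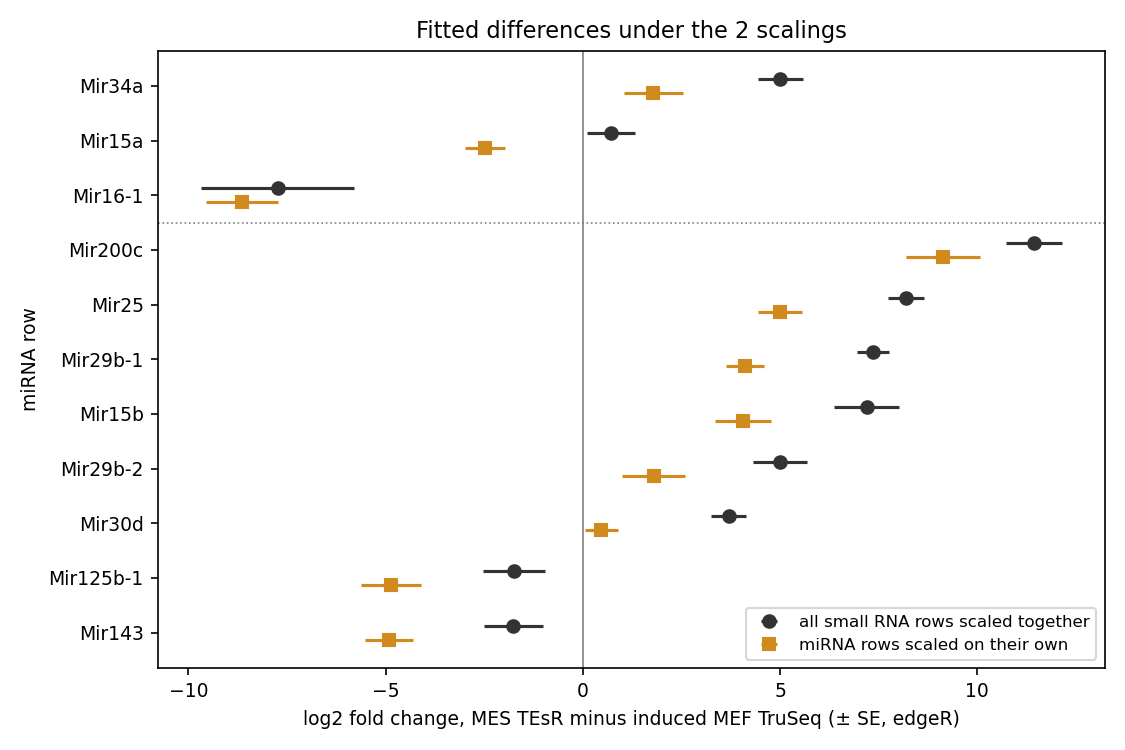
Fitted log2 fold change, MES TEsR minus induced MEF TruSeq, with SE, of the 3 members that passed the filter (above the dotted line) and of 8 related miRNAs, with all small RNA rows scaled together (circles) and miRNA rows scaled on their own (squares); the values of Mir16-1 and Mir200c, with a group at 0 counts, depend on the prior count. The miRNA rows scaled for the squares include the Snord43 row. Mir34a lies above 0 at 5.01 and 1.79, Mir16-1 lies below 0 on both scalings, and Mir15a lies on different sides of 0 at 0.71 and -2.48.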

How the data were processed

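The authors deposited read counts, as whole numbers for each annotated small RNA, in 2 tables with the same 5518 rows, not normalized, per the file headers. The submitters' processing notes name the build mm10 and the tools bedtools 2.25.0, SAMtools 1.2.1, BWA 0.7.12 and cutadapt, whose roles, settings and use of strand were not given in the sources used here. Per the labels' protocols, ribosomal RNA was removed before TEsR capture. Columns were assigned by name, and 4 columns of MEFs by TEsR that could not be assigned were not used. The comparisons that need them were not made.

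Gene types came from GENCODE vM21 by Ensembl identifier. miRNA totals count identical overlapping rows once and leave out a row named Snord43, a choice made with its values known. Shares have exact Clopper-Pearson 95% intervals, and 3 counts is the limit for a count of 0. That limit is lower than the exact upper one, and ratios to it leave out the counting error of the other group. MES was compared with TruSeq by edgeR 4.0.16 in R 4.3.3 (robust quasi-likelihood fit, TMM scaling, and a filterByExpr minimum count of 10) over all rows, with Benjamini-Hochberg adjustment, a threshold of 0.05, and SE taken as the fold change over the square root of F. The procedure was tested on simulated data, drawn for both groups from a common mean profile with a fixed spread and set changes in chosen rows. The simulation does not match the differences in composition and spread between these groups. Alternatives were DESeq2 1.42.0, library size only, no filter, miRNA rows only, duplicate rows counted once, and each library left out. Chi-square per degree of freedom between the libraries of a group was 21.9 in MES and 533 in TruSeq, above sampling noise, which does not tell separate cultures from repeated preparations.

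The members and lists were chosen with earlier results of these data known. Named rows are the 9 members, up to 4 rows with the most counts of each list, rows past the threshold, and the 3 rows nearest in level to the member with the most counts. Rows named as examples of shared mature sequences were chosen after their values were seen.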

Additional observations from a re-analysis of the deposited data

How the results depend on the processing

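The fit called 129 rows higher and 176 lower in MES. With miRNA rows only, scaled on their own, it called 50 higher and 43 lower of 113, and, added after the data were seen, 39 higher and 38 lower of 88 without rows that overlap snoRNA or ribosomal RNA rows, repeated rows and the Snord43 row. Leaving out 1 library, where the lone library of a group is assumed to vary like the others, gave 102 to 130 higher and 126 to 182 lower. DESeq2, library size only, no filter and duplicates counted once stayed within 1.5 times of the main counts, and moved the all-row median log2 fold change to between -2.42 and -0.65, against -1.06. Mir34a kept its higher call and Mir16-1 its lower call under each alternative run, with Mir34a between 1.63 and 5.52. Mir15a turned to -0.64 with library size only to -2.48 with miRNA rows only, and to -2.80 with the narrower miRNA rows. Of the shares of counts, the 9 members took 8.99e-04% of all counts in MES and 0.00143% in TruSeq, and 0.371% and 2.83% of miRNA counts, a change of denominator. With the Snord43 row in that total, a choice added after the data were seen, the shares were 0.350% and 0.00638%. With 1 library each the share of all counts was 8.26e-04% to 9.71e-04% in MES and 0.00108% to 0.00179% in TruSeq. No paired analysis was possible because the TruSeq columns are named by index and have no replicate number. Comparisons with MEFs by TEsR were not run. Members with fewer than 10 counts in a library rest on counts too few to resolve modest differences.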
